A study of Rattus norvegicus with 12 samples.

Results

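Trametinib is a drug that inhibits MEK, the kinase that activates ERK. Here it was given for 24 h, at 100 nM, to dermal precursor cells that also received 100 nM trimebutine maleate, and these cultures were compared with cultures that received 100 nM trimebutine maleate alone. The comparison used 6 of the 12 arrays of the study, 3 per group, chosen by the drugs in the sample titles. All 13636 genes with a single symbol and enough signal were tested, and the results below follow transcription factors, receptors, secreted factors, matrix genes and metabolic or stress processes rather than the cell cycle and ERK feedback genes.

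The cells were skin-derived precursors (SKPs), dermal cells that grow as floating spheres, obtained as 3 independent isolates from newborn Sprague-Dawley rats. All cultures, those with vehicle included, grew at 50000 cells per ml in medium with EGF at 20 ng/ml, FGF2 at 40 ng/ml and B27 at 2%, so that ligands of ERK-activating receptors were present in both groups. Spheres in their secondary passage were dissociated before the drugs were added. Trimebutine is prescribed for disorders of gut motility and is known to bind opioid receptors. The other 6 arrays of the study hold cultures with vehicle and with 100 nM alprostadil. No group received trametinib alone, so each difference below is that of trametinib in the presence of trimebutine. How many animals made up an isolate is not stated in the labels.

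ERK is the last kinase of the cascade that runs from growth factor receptors through RAS, RAF and MEK. Active ERK enters the nucleus and raises immediate early transcription factors, among them FOS and JUN family members that form the AP-1 complex, which binds short sites in the promoters of matrix-degrading protease genes. In dermal fibroblasts and their precursors the pathway is known for driving proliferation and protease expression. ATF4, a transcription factor named often below, is translated when the kinases of the integrated stress response are active, and it raises genes for amino acid uptake, amino acid synthesis and tRNA charging.

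Array values are log2 expression values, so that a difference of 1 is 2-fold. The medians of all 12 arrays ran from 6.41 to 6.50, and arrays of the same group correlated at 0.985 to 0.991 over all features. Of 13 tested precursor markers, Fn1, Vim, Vcan, Thy1, Pdgfra and Prrx1 had values above 11.5 on all 6 arrays, while Sox2, Sox9 and Twist1 lay between 5.75 and 7.30, in the lower part of the range. Keratinocyte and endothelial markers lay between 3.29 (Epcam) and 6.49 (Cdh1) on all arrays, around the low-signal limit of 5.83. Macrophage and adipocyte markers were present and differed between isolates, and their values are given beside the results they move with. In such bulk RNA, fewer cells of a type and less RNA per cell cannot be told apart.

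Adding trametinib changed many genes. Of 13636 genes tested, 5723 (42%) passed at an adjusted p under 0.05 in limma with the replicate number as a block, 2891 higher (21.2%) and 2832 lower (20.8%). Those called and at least 2-fold different numbered 657 (4.82%), with 236 higher (1.73%) and 421 lower (3.09%). The values of the 2 groups did not overlap for 6246 genes (45.8%). These shares are the background for every count below. Of the 421 large falls, 153 belonged to a list of 371 cell cycle and DNA replication genes. Outside that list and a list of 29 ERK feedback genes, the large changes were nearly balanced, with 234 genes higher and 259 lower among 13237. Both lists, like those below, were filled by patterns of gene symbols. The first therefore also holds genes such as Cdc42 and Cdc42ep2, and the second Sprtn, which are there by name only. The same holds below for Itgbl1 among the integrins and for the C1qtnf genes among complement proteins. Some members of the cell cycle and ERK feedback lists, such as Foxm1, Arhgap11a and Cdc42ep2, also stand in the lists below and are counted there. Without replicate 2, 3587 genes passed (1773 higher and 1814 lower), and 643 of them were at least 2-fold different. All p-values below are adjusted over the 13636 genes in the limma fit, and differences are those with trametinib minus those without, on the log2 scale, with the standard error (SE) of that fit and n = 3 arrays per group.

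The genes that mark the comparison are shown array by array in the plot of expression on each array. Dusp6, which encodes an ERK phosphatase that ERK itself induces, had values of 11.77, 11.52 and 11.53 on the trimebutine arrays (in order of replicate number) and 8.64, 8.06 and 8.44 with trametinib, a difference of −3.23 (SE 0.09, adjusted p = 2.99e-09). The collagenase gene Mmp13 went from 12.25, 12.03 and 12.36 to 5.60, 6.49 and 7.30, a difference of −5.75 (SE 0.27, adjusted p = 5.62e-08). All 3 trimebutine arrays of Mmp13 lay near the top of the range of the array and 1 of the trametinib arrays lay under the low-signal limit, so the 53.9-fold difference may be understated. The stromelysin gene Mmp3 went from 12.92, 12.91 and 13.15 to 6.51, 7.69 and 8.14, a difference of −5.55 (SE 0.25, adjusted p = 3.98e-08). In the other direction Mfap5, which encodes a glycoprotein of elastin-associated microfibrils, went from 6.63, 6.64 and 5.83 to 11.44, 11.35 and 10.33, a difference of 4.67 (SE 0.10, adjusted p = 7.02e-10). All 3 arrays with trametinib were high for Mfap5 and all 3 without it were low, with no overlap. The secreted Wnt modulator gene Sfrp2 went from 8.89, 8.74 and 8.67 to 12.83, 12.43 and 12.10, a 12.9-fold rise. The growth factor gene Pdgfd, whose product activates PDGF receptor beta, went from 6.72, 7.04 and 6.94 to 10.62, 10.50 and 10.28, an 11.9-fold rise. In each of these genes the highest array of the lower group stayed below the lowest array of the other, and the 3 isolates moved the same way. All but Dusp6 are also among the largest changes picked from genes without overlap, so that for them the lack of overlap is no separate result.

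Other large rises were spread over genes of different kinds. Adgrd1 (3.16) encodes an adhesion G protein-coupled receptor, Aqp1 (2.63) a water channel, Cd55 (2.61) a membrane protein that protects cells from complement, Cryab (2.49) a small heat shock protein, and Tagln (2.37) an actin-binding protein of contractile cells. Fhl1 (2.31) encodes a LIM domain protein of muscle and Cyp4b1 (2.23) a cytochrome P450. Tubb3 (2.86) encodes a tubulin used as a neuronal marker, and its trimebutine arrays (5.76, 5.66 and 5.66) all lay under the low-signal limit. Of 12 tested Schwann and neural markers, Tubb3 included, 2 rose and 3 fell (1 and none without the replicate block, and 1 fell without replicate 1 and without replicate 2), and Sox10 had a difference of 0.07 (not called). Large falls outside the proteases included Car2 (−3.44), a carbonic anhydrase gene, Ptgs2 (−2.72), the inducible cyclooxygenase gene of prostaglandin synthesis, Slco2a1 (−2.81), which encodes a prostaglandin transporter, Prkcb (−2.84), a protein kinase C gene, Gchfr (−2.86), which encodes a regulator of tetrahydrobiopterin synthesis, and Tmem100 (−2.73). The prostaglandin E2 receptor gene Ptger3 (2.30) rose while Ptgs2 fell, with Ptger3 at 7.89, 7.98 and 8.64 without and 10.11, 10.45 and 10.87 with trametinib and Ptgs2 at 12.50, 11.90 and 11.86 and 9.59, 9.15 and 9.35.

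Transcription factor genes were more often higher than lower. Of 457 tested in 10 lists, 123 rose (26.9%) and 65 fell (14.2%), beside 21.2% and 20.8% of all genes, and 20 rose at least 2-fold while 4 fell that far. The median difference over the 457 genes was 0.07, beside 0.03 over all genes. The leading family was that of basic leucine zipper factors, in which 22 of 43 rose and 6 fell (median 0.20). Creb5, a relative of ATF2, went from 7.41, 7.40 and 7.52 to 9.36, 9.68 and 9.29, a difference of 2.00 (SE 0.09, adjusted p = 5.53e-08). The stress-induced factor gene Atf5 (1.85), the repressor gene Nfil3 (1.74) and the AP-1 subunit gene Jund (1.51) rose as well, while Jun (−0.34), Batf3 (−0.76) and the antioxidant regulator gene Nfe2l2 (−0.59) fell. Of the AP-1 subunits named here, Jund and Jun passed in opposite directions. The count of leucine zipper genes that rose was 17 without replicate 2, and 3 fell without replicate 1.

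The orphan nuclear receptors of the NR4A family, which act as immediate early genes without a known physiological ligand, all rose. Nr4a3 went from 7.01, 7.19 and 7.06 to 8.96, 9.66 and 9.91, a difference of 2.42 (SE 0.17, adjusted p = 1.03e-06), and Nr4a1 (1.76) and Nr4a2 (0.72) followed it. Nr3c2 (1.63), the mineralocorticoid receptor gene, also rose, and Rorb (−0.62) and Nr2f2 (−0.48) fell among 36 nuclear receptor genes (12 rose, 6 fell; 9 and 3 without the replicate block, and 3 fell without replicate 2). Among 83 zinc finger genes, 24 rose and 11 fell (7 fell without the replicate block, without replicate 1 and without replicate 2). Klf2, a Krüppel-like factor gene known from quiescent cells, went from 7.39, 7.30 and 7.31 to 8.78, 9.07 and 8.90, a difference of 1.58 (SE 0.07, adjusted p = 2.93e-08). Klf3 (1.40), Klf4 (1.35) and the glucocorticoid-responsive Klf9 (1.33) rose beside it. Klf10 (−1.07), a factor induced by TGF-beta, fell, as did Tshz1 (−1.05) and Snai1 (−0.88), a repressor known for its part in epithelial-mesenchymal transition.

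Patterning factors split as well. Of 76 homeobox genes outside the Hox clusters, 13 rose and 9 fell, which is under the background share in both directions. Pknox2 (1.76) rose, and so did Prrx2, a mesenchymal gene of developing dermis and limb, which went from 7.43, 7.47 and 7.73 to 8.60, 9.08 and 8.85, whereas Alx4 (−1.14) and the paired genes Meox1 (−0.66) and Meox2 (−0.60) fell. In the basic helix-loop-helix list (18 of 72 rose and 11 fell, 13 and 6 without replicate 2), Ebf3 (1.08), the clock factor gene Bmal1 (0.97), the hypoxia factor gene Epas1 (0.86) and the dermal factor gene Twist2 (0.83) rose, and Id2 (−0.41) and Id3 (−0.56), which encode inhibitors of that family and are known targets of BMP signalling, fell. Of ETS factors that are not ERK feedback genes, Ets2 (0.86) and Elf4 (0.74) rose and Elk3 (−0.99) and Gabpa (−0.59) fell, with 14 of 19 not called. Mef2c (1.23) and Nfia (0.72) rose. The T-box gene Tbx3 (−0.71) fell, and so did Vgll4 (−0.77), which encodes a TEAD-binding repressor, while Vgll3 (0.66) of the same family rose. Of factors for cytokine and interferon signals, Stat3 (0.67), Irf7 (0.71) and Irf9 (0.51) rose and Irf1 (−0.70), Nfkb2 (−0.40) and Irf2 (−0.38) fell. Sox and forkhead genes seldom passed: of 13 Sox genes Sox4 (0.63) rose and Sox12 (−0.22) fell, the latter not called in 11 of 17 alternatives, among them each that left out a replicate number, and of 33 forkhead genes Foxo1 (0.45) and Foxn3 (0.44) led the 7 that rose (3 without replicate 2 and 4 without replicate 1), with 2 falling. The larger of these 2 falls was that of Foxm1 (−1.40), which is also in the cell cycle list.

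**Figure D1:**
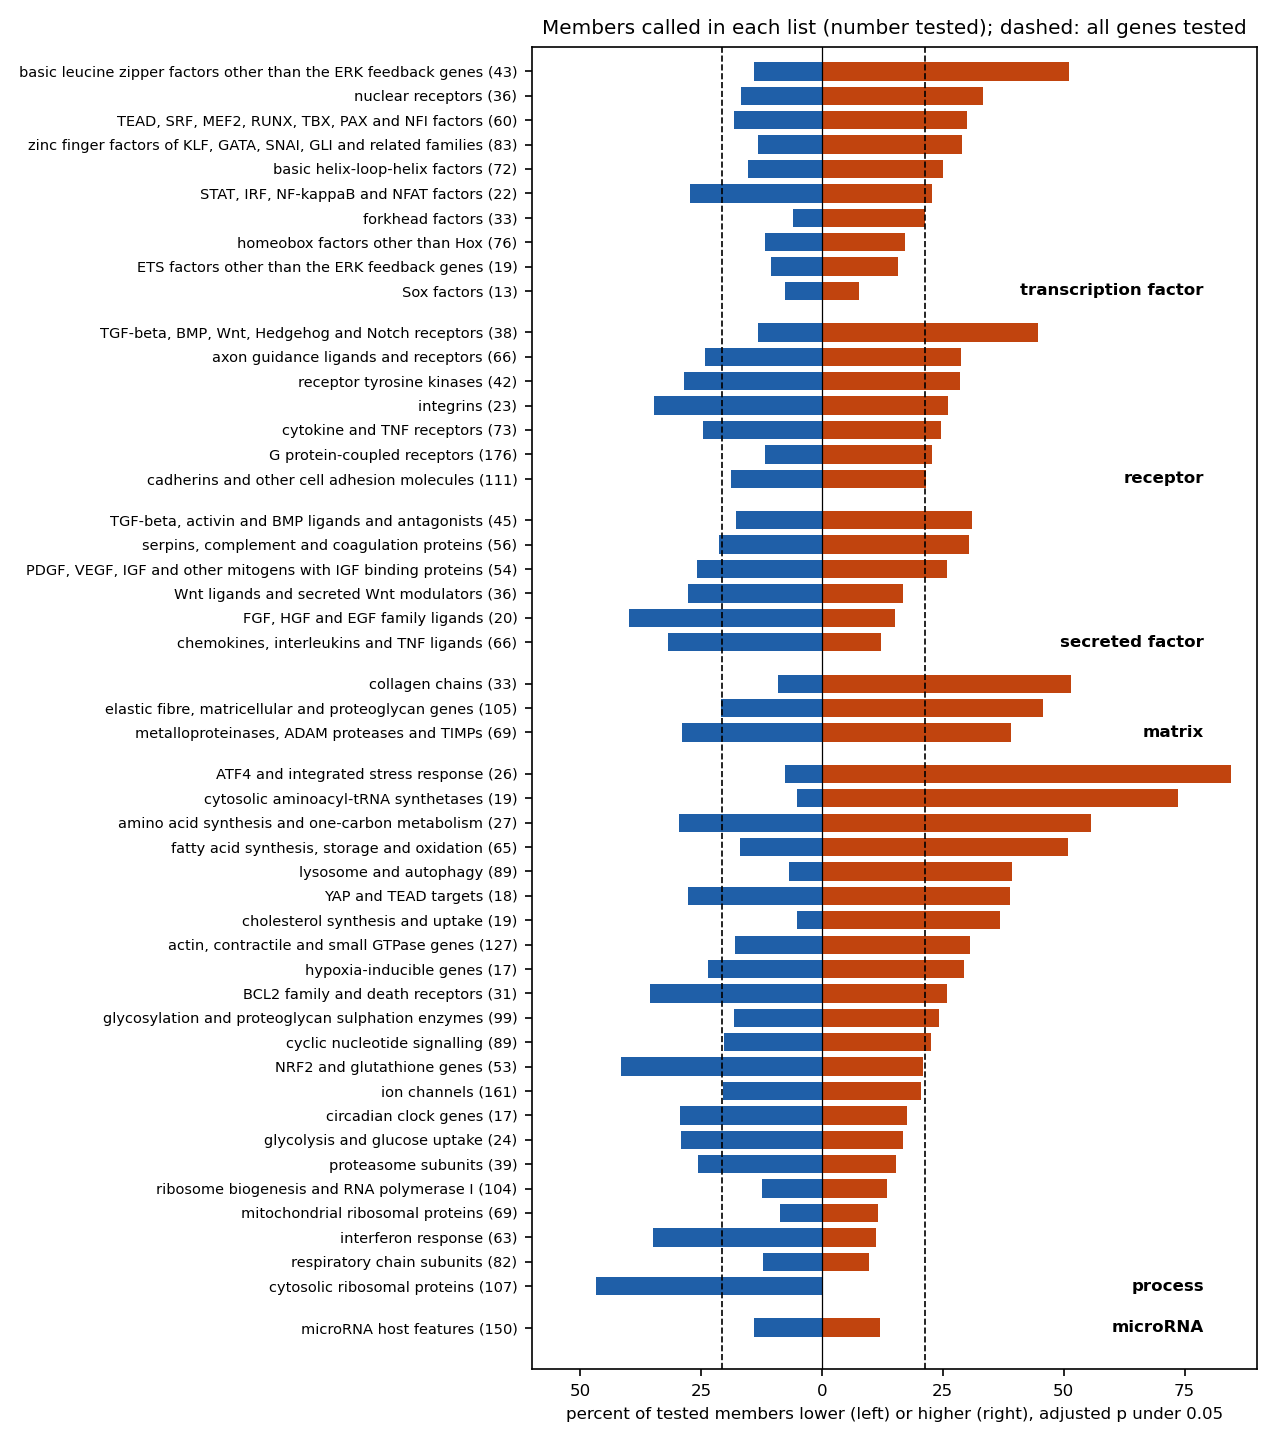
Percent of tested members of each gene list, grouped by role, that passed at an adjusted p under 0.05, lower to the left in blue and higher to the right in red, with the number tested in brackets and dashed lines at the 20.8% and 21.2% of all 13636 genes. The lists of ATF4, tRNA synthetases, amino acid synthesis, collagens, leucine zipper factors and fatty acid genes reach past 50% on the higher side, and ribosomal proteins have no member there.

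Receptor genes changed in both directions. Of 516 tested in 7 lists, 132 rose (25.6%) and 97 fell (18.8%), with 19 and 23 at least 2-fold different and a median of 0.06. Among 176 G protein-coupled receptor genes, 40 rose and 21 fell (25 rose without replicate 2). Adgrd1 had values of 8.11, 7.36 and 6.78 without and 11.04, 10.78 and 9.89 with trametinib. Ackr3, which encodes a scavenger receptor for the chemokine CXCL12, went from 7.15, 7.44 and 7.48 to 10.02, 10.19 and 9.96, a difference of 2.70 (SE 0.09, adjusted p = 7.00e-09). The gene of its ligand, Cxcl12 (1.73), rose too, with 9.55, 9.34 and 9.22 without and 11.08, 10.97 and 11.24 with trametinib. The angiotensin II receptor gene Agtr1a (1.32) rose, and Adcyap1r1 (−2.19), the PACAP receptor gene, and F2rl2 (−1.99), a protease-activated receptor gene, fell.

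The chemokine receptor genes Ccr1 (−3.11) and Ccr2 (−1.93), known chiefly from monocytes and macrophages, fell. Ccr1 had values of 8.61, 8.47 and 8.54 without and 5.04, 5.36 and 5.89 with trametinib. Beside these, the mean of all 17 macrophage and leukocyte markers on the array, of which 15 were tested, was 7.44, 8.02 and 8.55 on the trimebutine arrays and 7.38, 8.08 and 8.29 with trametinib, lowest in replicate 1 of both groups. Of the 15 tested, 4 rose (C1qa, C1qb, C1qc and Csf1r) and 3 fell (Ptprc, Cd68 and Cd14), with Cd68 at 10.74 and 9.72 in the group means, while Lyz2 (−0.09) and Tyrobp (−0.01) were not called. Without the replicate block 1 of the 15 rose and 1 fell, and without replicate 2 C1qb, C1qc and Csf1r were not called (adjusted p = 0.0932, 0.0842 and 0.193). The part of macrophage content in the falls of Ccr1 and Ccr2 was not tested.

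Of 42 receptor tyrosine kinase genes, 12 rose and 12 fell (6 rose without replicate 1 and without replicate 2). Ephb3 (1.45) and Ephb2 (1.05), receptors for membrane-bound ephrin-B ligands, rose and Epha2 (−1.20) fell. Met (−1.17), the receptor gene for hepatocyte growth factor, Alk (−0.95) and the neurotrophin receptor gene Ntrk2 (−0.80) fell, and the insulin receptor gene Insr (0.73) rose. The genes of the drug targets moved little: Map2k1 differed by −0.24 (SE 0.05, adjusted p = 0.00231) and Map2k2 differed by 0.25 (SE 0.07, adjusted p = 0.017), and Map2k2 was not called without replicate 2 (adjusted p = 0.173), without replicate 3 (adjusted p = 0.109), or without trimebutine replicate 2 or 3 or combination replicate 2 alone (adjusted p from 0.0523 to 0.0871). In the list of TGF-beta, BMP, Wnt, Hedgehog and Notch receptors 17 of 38 rose and 5 fell (median 0.11; 11 and 3 without the replicate block). The betaglycan gene Tgfbr3 (1.07), which encodes a TGF-beta co-receptor, Fzd4 (0.96), Acvrl1 (0.81) and Cdon (0.72) rose, and Lrp5 (−1.04) and Notch1 (−0.53) fell. In the cytokine and TNF receptor list, with 18 of 73 rising and 18 falling, Tnfrsf11b (2.50), which encodes osteoprotegerin, a secreted decoy receptor, stood first. Tnfrsf11b went from 7.34, 7.57 and 7.92 to 9.76, 10.40 and 10.18. Cntfr (0.91) and Tnfrsf21 (0.67) rose, while Il18rap (−1.37), Eda2r (−0.99), Il1rap (−0.96) and the decoy receptor gene Il13ra2 (−0.96) fell.

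Adhesion receptors followed no common direction. Of 23 integrin genes 6 rose and 8 fell (3 rose without the replicate block). The collagen-binding subunit gene Itga2 went from 10.61, 10.79 and 9.79 to 9.21, 8.66 and 7.86, a difference of −1.82 (SE 0.12, adjusted p = 6.41e-07). The laminin-binding subunit gene Itga6 (−1.62), Itga8 (−1.07) and Itga4 (−0.66) fell with it. Itga9 (1.47) rose, as did Itgbl1 (0.52), which is in the list by name and is not an integrin subunit gene. Among axon guidance genes, which also steer vessels and mesenchymal cells, 19 of 66 rose and 16 fell (12 rose without replicate 2). The secreted repellent gene Sema3a went from 12.33, 12.30 and 12.44 to 9.89, 9.998 and 10.31, a difference of −2.29 (SE 0.07, adjusted p = 4.12e-09), and Sema7a (−2.30), Sema6d (−1.82) and Ntn1 (−1.83) fell too, while Nrp1 (1.26), the gene of a receptor for SEMA3A, and Ntn4 (1.49) rose. Ncam1 (1.83), Cadm3 (1.49), Cdh7 (1.20) and Pcdh20 (1.12) rose among cell adhesion molecules, and the tight junction gene Cldn1 (−1.74) and Alcam (−1.15) fell.

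Secreted factors were split, and the relatives named here, chosen with their values in view, were called in opposite directions. Of 277 tested in 6 lists, 62 rose (22.4%) and 73 fell (26.4%), with 18 and 25 at least 2-fold different. In the platelet-derived growth factor family Pdgfd rose while Pdgfc (−1.51) fell. Among vascular endothelial growth factors Vegfd (1.58) rose and Vegfa (−1.21), the main angiogenic member, fell, with Vegfa at 11.03, 10.81 and 10.84 without and 9.63, 9.72 and 9.71 with trametinib. Of insulin-like growth factor binding proteins Igfbp5 (1.21) rose and Igfbp3 fell from 11.93, 11.59 and 12.34 to 8.49, 9.29 and 9.77, a difference of −2.77 (SE 0.20, adjusted p = 1.06e-06). Of the stanniocalcins Stc2 (1.18) rose and Stc1 (−2.58) fell. The enkephalin precursor gene Penk (−1.30), whose product yields opioid peptides, fell too.

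Bone morphogenetic protein genes parted in the same way. Bmp2 had values of 10.34, 10.38 and 10.44 without and 7.29, 7.13 and 7.40 with trametinib, a difference of −3.11 (SE 0.08, adjusted p = 2.49e-09), and Bmp6 had values of 6.88, 6.60 and 6.71 and 8.64, 9.03 and 8.97, a difference of 2.14 (SE 0.12, adjusted p = 1.83e-07). Bmp7 (−1.04) and the antagonist gene Grem1 (−2.49) fell, and the antagonist gene Nbl1 (1.11) rose. Tgfb3 (1.53) and the TGF-beta-induced matrix gene Tgfbi (1.53) rose in the same list, where 14 of 45 rose and 8 fell (median 0.13). Among Wnt genes (6 of 36 rose and 10 fell, 4 rose without replicate 2 and 5 fell without replicate 3) Sfrp2 rose while its relatives Sfrp1 (−1.72) and Frzb (−2.08) fell, Wnt16 (1.26) rose, and Wnt5a (−1.45) and the R-spondin gene Rspo4 (−1.22) fell. Wnt5a went from 9.37, 9.70 and 9.85 to 7.64, 8.33 and 8.59.

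Of 20 genes for FGF, HGF and EGF family ligands 3 rose and 8 fell (1 rose without the replicate block, without replicate 2 and without replicate 3). The keratinocyte growth factor gene Fgf7 (1.69) went from 9.93, 10.70 and 10.09 to 11.69, 12.12 and 11.97, whereas Fgf10 (−1.08), which encodes a ligand of the same receptor isoform, went from 10.46, 10.14 and 10.27 to 9.32, 9.03 and 9.26. The EGF receptor ligand gene Hbegf (−0.78), Fgf2 (−0.66) and the neuregulin gene Nrg1 (−0.55) fell. Of 66 chemokine, interleukin and TNF ligand genes 8 rose (5 without replicate 1 and without replicate 2) and 21 fell. Il6 went from 6.64, 6.06 and 6.04 to 9.05, 8.16 and 7.96, a difference of 2.15 (SE 0.16, adjusted p = 1.38e-06), and Il15 (0.88) rose with Cxcl12. The alarmin gene Il33 (−2.07), the osteopontin gene Spp1 (−1.95), Cxcl16 (−1.92) and the interferon-induced chemokine gene Cxcl10 (−1.51) fell. Spp1 and Cxcl16 are also made by macrophages, and the part of the macrophage content given above was not tested. In the list of serpins, complement and coagulation proteins 17 of 56 rose and 12 fell (11 rose without the replicate block and without replicate 2). Cd55, C1qtnf6 (1.28) and C1qtnf2 (1.17) had the largest rises. The urokinase gene Plau went from 9.95, 9.56 and 9.13 to 7.44, 7.38 and 7.11, a difference of −2.24 (SE 0.11, adjusted p = 1.00e-07), and the gene of its receptor, Plaur (−1.03), and the protease inhibitor gene Tfpi2 (−2.12) fell with it.

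**Figure D2:**
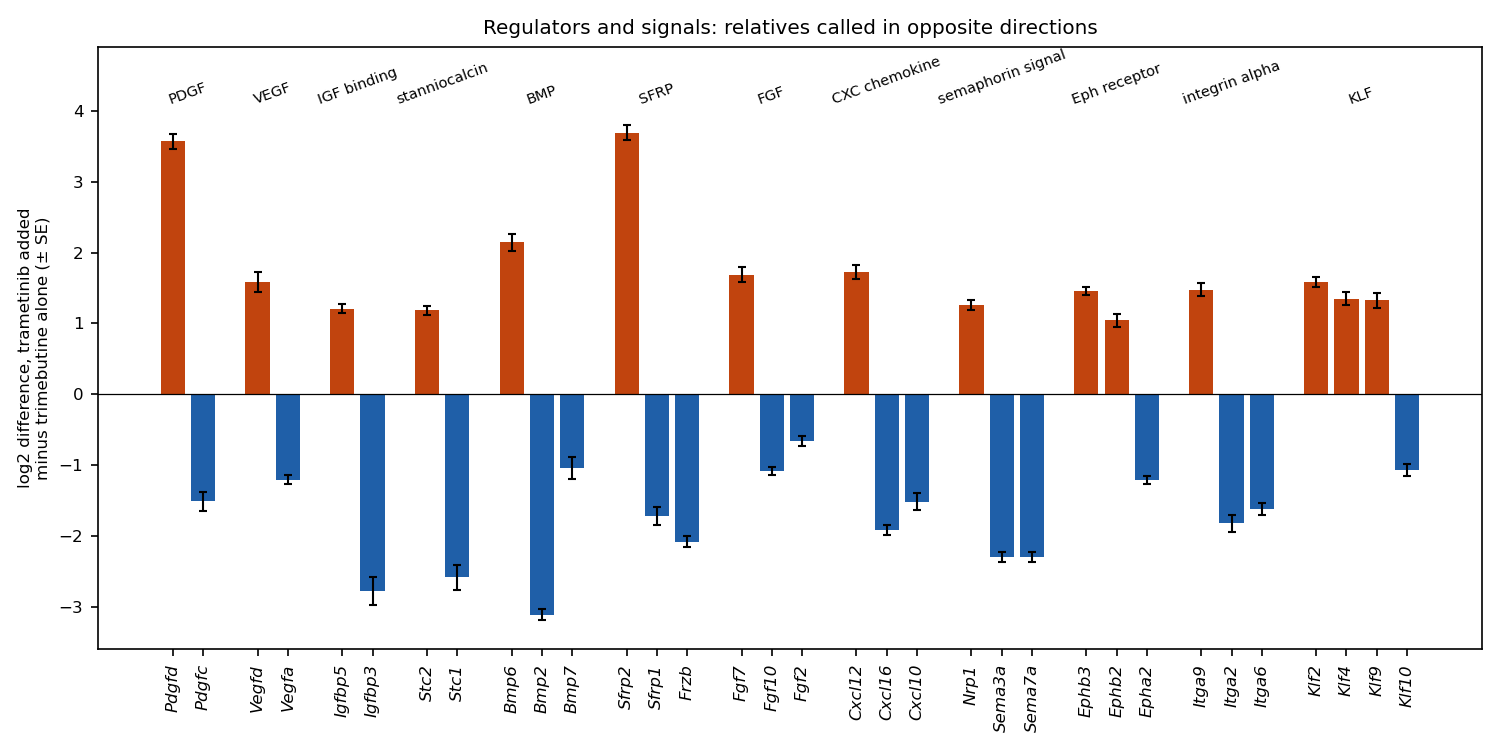
Difference on the log2 scale with trametinib added, with the standard error of the fit (n = 3 arrays per group), for members of 12 families or signal pairs, red higher and blue lower. Each bar passed at an adjusted p under 0.05, and each family holds a member on either side of 0, such as Pdgfd at 3.57 beside Pdgfc at −1.51. The 12 families were chosen after their values were seen.

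Matrix genes held the largest share of changes among these roles. Of 207 tested in 3 lists, 92 rose (44.4%) and 45 fell (21.7%), with 24 and 13 at least 2-fold different and a median of 0.13. Of 33 collagen chain genes 17 rose and 3 fell (median 0.23). The fibrillar chain gene Col11a1 went from 7.38, 7.48 and 7.92 to 9.47, 9.82 and 10.13, a difference of 2.21 (SE 0.09, adjusted p = 2.67e-08), and Col14a1 (1.62) and Col12a1 (1.36), which encode collagens that sit on fibrils, rose with Col3a1 (0.97). Col8a1 (−1.95), a network-forming chain gene of vessels and wounds, and Col18a1 (−0.83) fell. Of 105 elastic fibre, matricellular and proteoglycan genes 48 rose and 22 fell. Besides Mfap5, Ccdc80 (2.61) and the small proteoglycan genes Aspn (2.46) and Omd (1.88) rose. Mgp (−1.86), which encodes an inhibitor of calcification, Mfap3l (−2.29), Adamtsl1 (−1.36) and Efemp1 (−1.21) fell.

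The protease list had 27 of 69 members higher and 20 lower and held the largest falls of all genes outside the cell cycle and ERK feedback lists. Mmp13, Mmp3, Mmp10 (−3.74), Mmp9 (−3.36), Mmp1 (−2.71) and Mmp12 (−2.66) fell. Mmp10 had values of 8.74, 8.87 and 9.47 without and 5.04, 5.39 and 5.42 with trametinib. Mmp9 and Mmp12 are also expressed by macrophages, whose part in these falls was not tested, and Mmp12 had values of 8.81, 9.28 and 10.07 and 6.17, 6.90 and 7.11. All 3 trametinib arrays of Mmp10 and Mmp1 lay under the low-signal limit, so their falls may be understated, as may those of Ccr2, Kcnip4 and Mir222, for which the same held. The aggrecan-cleaving protease gene Adamts5 went from 8.17, 7.84 and 8.26 to 10.75, 10.87 and 10.87, a difference of 2.74 (SE 0.09, adjusted p = 4.25e-09), and Adamts15 (1.52) and the cathepsin gene Ctsc (1.34) rose.

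Promoter sequences from the RefSeq table of GRCr8 were searched for the AP-1 letters TGANTCA on both strands, in 300 bases from 250 before to 50 after each gene start. Of 11033 tested genes with a promoter, 592 (5.37%) held a match, beside 7.33% of all promoters of the table. Of the genes that fell at least 2-fold outside the lists of the cell cycle and ERK feedback, 26 of 191 (13.6%) did, and of those that rose at least 2-fold 11 of 187 (5.88%) did. In the protease list 7 of 51 promoters (13.7%) held a match. Of those 7 genes, Mmp13, Mmp3, Mmp10, Mmp12 and Mmp1 fell, and Adam19 (−0.03) and Mmp20 (0.02) were not called. The 5 that fell are printed, with the match 66, 71, 61, 87 and 84 bases before the gene start for Mmp13, Mmp3, Mmp10, Mmp12 and Mmp1. They were chosen after their values were seen, and all 5 lie in 1 gene cluster on chromosome 8, so that they are related by descent. Mmp20, in the same cluster, holds its match 96 bases before its start and was not called. Its match reads TGAATCA, as does a match of Mmp1 that is not printed, and the printed matches read TGACTCA or TGAGTCA. Adam19, also not called, holds TGAGTCA 169 bases before its start, so that the letters do not part the called genes from the others. The part of the letters, of their place or of the cluster in the falls was not tested. Each line is 5′ to 3′ on the strand of the gene in GRCr8, with the match in capitals and 15 bases on either side. Mmp1 has a second match farther from its start. A match describes these letters and is not a measured binding site.
Mmp13, chr8:12782748-12782784 (plus strand): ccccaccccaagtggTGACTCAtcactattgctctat
Mmp3, chr8:12925195-12925231 (plus strand): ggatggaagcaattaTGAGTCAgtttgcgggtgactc
Mmp10, chr8:12974631-12974667 (plus strand): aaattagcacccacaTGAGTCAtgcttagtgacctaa
Mmp12, chr8:12866550-12866586 (plus strand): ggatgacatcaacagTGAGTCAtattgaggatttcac
Mmp1, chr8:12943354-12943390 (plus strand): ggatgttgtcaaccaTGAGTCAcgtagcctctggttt

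Genes of the ATF4 response rose together. Of 26 tested, 22 rose and 2 fell (median 0.85), and 22 rose also without each replicate number in turn, without the block and under both other scalings. The falls were less stable: none was called with array medians set equal, without the block, without replicate 1 or without replicate 2, and 1 was with quantile normalization or without replicate 3. Beside Atf5, the pseudokinase gene Trib3 went from 6.27, 6.14 and 6.07 to 7.32, 7.50 and 7.79, a difference of 1.38 (SE 0.14, adjusted p = 1.37e-05), the amino acid transporter gene Slc7a5 (1.41) rose and the lipoprotein receptor gene Vldlr went from 5.98, 6.16 and 6.48 to 7.12, 7.78 and 8.09. The pattern extended to tRNA charging. Of 19 cytosolic aminoacyl-tRNA synthetase genes 14 rose and 1 fell (median 0.35), led by Wars1 (0.95), Sars1 (0.79), Aars1 (0.67) and Eprs1 (0.62), and the one that fell was Qars1 (−0.40). In the list of amino acid synthesis and one-carbon metabolism 15 of 27 rose and 8 fell (median 0.34; 4 fell without replicate 1 and without replicate 2). The mitochondrial folate enzyme genes Aldh1l2 (1.24) and Mthfd2 (1.10), the proline synthesis gene Pycr1 (1.00) and the asparagine synthetase gene Asns (0.86) rose. Aldh1l2 had values of 8.64, 8.52 and 8.72 without and 9.82, 9.72 and 10.05 with trametinib. The cytosolic folate enzyme gene Mthfd1 (−0.73) and the arginine synthesis gene Ass1 fell, and Ass1 went from 7.95, 8.25 and 9.08 to 6.01, 6.09 and 6.21, a difference of −2.32 (SE 0.15, adjusted p = 6.59e-07). The cystine transporter gene Slc7a11 (0.96) rose as well.

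The same promoters were searched for TGATGNAA, the letters of the C/EBP-ATF element that ATF4 dimers bind, again on both strands. Of all tested genes with a promoter 243 (2.2%) held it (3.82% of all promoters of the table), whereas 7 of 17 aminoacyl-tRNA synthetase promoters (41.2%), 5 of 21 promoters of the ATF4 list (23.8%) and 2 of 22 of the amino acid list (9.09%) did. Among genes that rose at least 2-fold outside the cell cycle and ERK feedback lists the share was 4.81% (9 of 187). Among those that fell that far it was 1.57%. The 9 include Trib3, Chac1, Slc1a4 and Slc7a1 of the ATF4 list and Pycr1 of the amino acid list, so that the 4.81% is no separate result. The ATF4 list was drawn up from known ATF4 targets, so that its share is a property of the list. All 7 synthetase genes with a match rose: Aars1 (0.67), Yars1 (0.54), Tars1 (0.48), Mars1 (0.42), Iars1 (0.33), Cars1 (0.26) and Nars1 (0.20). The calls for Cars1 and Nars1 rested on few arrays: without replicate 3 their differences were 0.12 and 0.15 (adjusted p = 0.310 and 0.154), and without replicate 1 both also missed the threshold (adjusted p = 0.0831 and 0.109). The windows of 6 of them, all but Aars1, are printed with those of Pycr1, Trib3, Chac1 (1.13) and Slc1a4 (1.26) to show the common letters, and Tubb3 and Aspn are shown because they had the largest rises among genes with a match. Capitals mark the match, which is the reverse complement of those letters where the element lies on the other strand. The window of Yars1 stops where the promoter in the table ends.
Yars1, chr5:146820186-146820212 (plus strand): agctacgagctcagcTGATGCAAcctg
Tars1, chr2:62114807-62114844 (minus strand): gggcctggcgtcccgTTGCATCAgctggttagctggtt
Mars1, chr7:65023748-65023785 (minus strand): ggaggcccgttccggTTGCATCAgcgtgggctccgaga
Iars1, chr17:15193654-15193691 (minus strand): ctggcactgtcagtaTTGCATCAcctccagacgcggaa
Cars1, chr1:208225330-208225367 (minus strand): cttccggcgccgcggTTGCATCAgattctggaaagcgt
Nars1, chr18:60275774-60275811 (minus strand): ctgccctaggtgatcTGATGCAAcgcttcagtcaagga
Pycr1, chr10:106420921-106420958 (minus strand): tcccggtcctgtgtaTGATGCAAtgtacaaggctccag
Trib3, chr3:161275532-161275569 (minus strand): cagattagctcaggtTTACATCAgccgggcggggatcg
Chac1, chr3:126795949-126795986 (plus strand): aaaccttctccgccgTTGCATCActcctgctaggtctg
Slc1a4, chr14:98761775-98761812 (minus strand): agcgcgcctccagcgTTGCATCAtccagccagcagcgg
Tubb3, chr19:68365606-68365643 (plus strand): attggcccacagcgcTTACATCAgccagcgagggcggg
Aspn, chr17:15310538-15310575 (minus strand): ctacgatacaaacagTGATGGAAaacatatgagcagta

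In the promoters of Mars1 and Nars1 the match lay 17 and 14 bases before the gene start, and in that of Yars1 it lay 39 bases after it. The E-box letters CACGTG were found in 6.65% of all 27457 promoters of the table, in 9.15% of those of tested genes, in 6.81% of genes lower at least 2-fold outside those lists and in 5.88% of those higher. The ETS letters CCGGAAG, which ERK-regulated ETS factors can bind, were found in 9.22% of all promoters of the table, in 15.7% of those of tested genes, in 8.9% of the large falls and in 4.81% of the large rises. The synthetase promoters held these letters often too, the ETS letters in 9 of 17 (52.9%) and the E-box letters in 5 of 17 (29.4%), so that the C/EBP-ATF element was not alone in its high share there. None of the searched motifs overlapped a printed match.

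**Figure D3:**
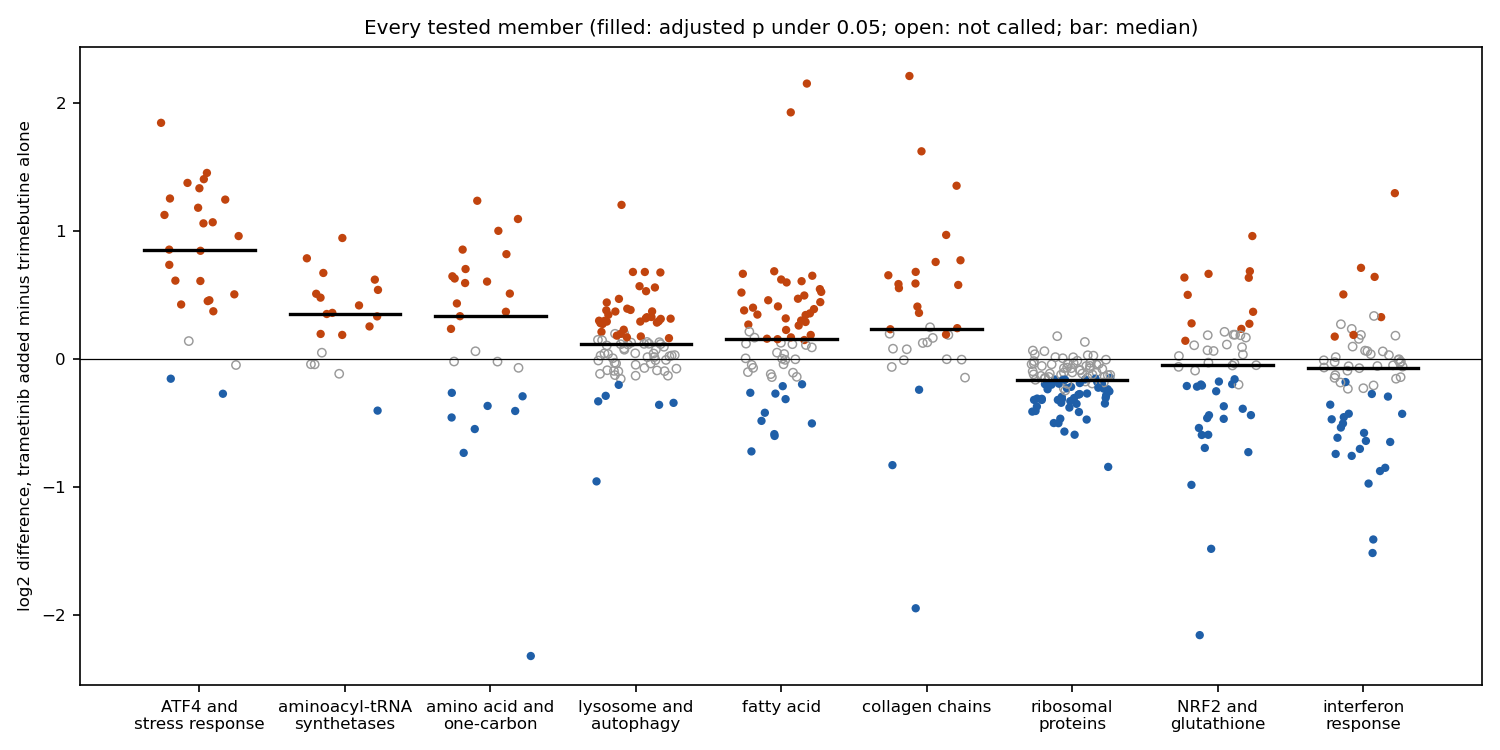
Difference on the log2 scale for each tested member of 9 gene lists, filled where the adjusted p was under 0.05 and open where it was not, with a bar at the median. The medians run from 0.85 in the ATF4 list to −0.16 in the ribosomal protein list, and the amino acid list has Ass1 at −2.32 far below its other members.

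Other metabolic lists shifted by less. Of 89 lysosome and autophagy genes 35 rose and 6 fell (median 0.12; 21 rose without replicate 2), with Fnip2 (1.21), a gene of the folliculin complex, Map1lc3a (0.68), Ctsh (0.68) and Neu1 (0.68) higher and the arylsulfatase gene Arsb (−0.95) lower. Of 65 fatty acid genes 33 rose and 11 fell (median 0.16; 17 rose without the replicate block and 7 fell without replicate 2). The fatty acid binding protein gene Fabp3 (2.15) and the lipoprotein lipase gene Lpl (1.93) led, with Lpl at means of 10.50 without and 12.43 with trametinib, and the lipid droplet gene Plin2 (−0.72) fell. Beside them, 8 of 10 adipocyte markers rose and 1 fell with the block, and 1 rose and none fell without it (3 rose without replicate 2, 5 rose without replicate 1, and none fell without replicate 3). The mean of all 11 adipocyte markers on the array, Lep under the filter included, was 7.62, 8.22 and 8.76 on the trimebutine arrays and 8.15, 8.78 and 8.95 with trametinib, so that the isolates differed by more than the drug. The part of adipocyte content in the fatty acid list was not tested. Cholesterol genes had 7 of 19 higher and 1 lower (none without replicate 2), with Dhcr7 (0.69) the largest. Of 24 glycolysis genes Hk2 (−0.65), Pfkm (−0.56), Pgk1 (−0.41) and Slc2a1 (−0.41) were among 7 that fell (4 without the replicate block and without replicate 2), and 4 rose, led by Arrdc4 (0.62).

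Of 107 cytosolic ribosomal protein genes 50 fell and none rose, with 97 differences below 0 and a median of −0.16. The count was 57 when the arrays were quantile normalized again and 41 when their medians were set equal, and 19 fell without replicate 2, where 1 rose. The list includes near-identical copies, so that single members are uncertain. Of 104 genes of ribosome biogenesis 14 rose and 13 fell (median 0.01). Without replicate 2 these were 9 and 3, without replicate 3 the rises were 8, and the falls were 8 without replicate 1 and 7 with array medians set equal. Of 39 proteasome genes 10 fell and 6 rose (5 and 2 without replicate 2, 6 fell without replicate 1, and 1 rose without replicate 3). The largest falls were those of the interferon-inducible subunit genes Psmb8 (−0.97), Psmb9 (−0.87) and Psmb10 (−0.85) and of Psme2 (−0.56), and Psmd8 (0.92) of the regulatory particle had the largest rise. In the interferon response list 22 of 63 fell and 7 rose (median −0.07; 4 rose without replicate 1 and without the replicate block), with the class I histocompatibility gene RT1-S3 (−1.41) and Cxcl10 lower and Ifit2 (1.30) higher. Of 53 NRF2 and glutathione genes 22 fell and 11 rose (14 and 6 without replicate 2, and 7 rose without replicate 1). The glutathione transferase genes Gsta1 (−2.16), Mgst2 (−1.48) and Gstp1 (−0.98) and the thioredoxin reductase gene Txnrd1 (−0.73) fell, as did Nfe2l2, whose product is NRF2, while Gpx7 (0.67) and Sod3 (0.64) rose.

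Cell death genes went both ways, with 8 of 31 higher and 11 lower (6 and 8 without replicate 2). The inflammatory caspase genes Casp4 (1.96) and Casp12 (1.19) rose, as did the survival gene Bcl2 (0.96) and the pore-forming gene Bak1 (0.81), and the death receptor gene Fas (−0.94) and the BH3-only genes Pmaip1 (−0.81) and Bcl2l11 (−0.70) fell. Casp4 had values of 7.74, 8.02 and 8.10 without and 9.83, 9.93 and 9.996 with trametinib. Of 127 actin, contractile and small GTPase genes 39 rose and 23 fell (median 0.07), with the small GTPase gene Rhob (1.93), Arhgap20 (1.76) and Cdc42ep2 (1.55) higher and Arhgap18 (−1.19), Arhgap6 (−1.12) and Cavin3 (−0.90) lower. The largest fall of that list was that of Arhgap11a (−1.84), which is also in the cell cycle list. The YAP and TEAD target genes Ccn2 (1.49), Ccn1 (1.07) and Lhfpl6 (1.48) rose, with Ccn2 at 8.66, 9.22 and 8.96 without and 10.19, 10.57 and 10.56 with trametinib. Of the 18 tested genes of that list 7 rose and 5 fell (5 and 3 without replicate 2), with Igfbp3, Crim1 (−0.51) and Asap1 (−0.38) among the falls. Of 17 hypoxia-inducible genes 5 rose and 4 fell, and the collagen enzyme genes P4ha2 (1.63) and Lox (1.01) rose while Vegfa fell.

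Ion channel genes changed at background rates, with 33 of 161 higher and 33 lower (20 higher without replicate 2). The potassium channel gene Kcnk6 (2.06), the glutamate receptor gene Gria4 (1.99) and the calcium channel gene Orai2 (0.95) rose. Kcnip4 (−2.35), Kcnf1 (−1.78), Ano3 (−1.51) and the calcium-activated potassium channel gene Kcnn4 (−1.45) fell. Genes of cyclic nucleotide signalling were also called at background rates, with 20 of 89 higher and 18 lower (median 0.02). Without the replicate block 11 were lower, and without replicate 2 10 were higher. Of them the adenylyl cyclase genes Adcy2 (−0.87), Adcy3 (−0.84) and Adcy8 (−0.74) fell and the phosphodiesterase gene Pde8a (1.09) rose. Of 17 circadian clock genes 3 rose and 5 fell (median −0.11; 2 fell without the replicate block, without replicate 1 and without replicate 2, and 3 without replicate 3). Nfil3, Bmal1 and Cry2 (0.67) rose, and Rorb, Bhlhe41 (−0.33), Rora (−0.26), Dbp (−0.23) and Per3 fell, with Bhlhe41, Rora and Dbp not called in 6, 4 and 6 of 17 alternatives. Of 99 glycosylation enzyme genes 24 rose and 18 fell (18 and 15 without replicate 2). Galnt16 (2.10), Galnt17 (1.18) and B4galt1 (1.01) rose. The chondroitin sulphate enzyme gene Csgalnact1 (−2.39), the heparan sulphate sulphatase gene Sulf1 (−1.14) and Ust (−1.12) fell. Just outside the threshold lay Ctnnd1 (0.15, adjusted p = 0.05004) and Slc25a47 (0.16, adjusted p = 0.05006).

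The array also carries features named for microRNA genes. These were measured on total RNA by a whole-transcript method, so that a feature may report precursor or host transcript, and mature microRNAs were not measured apart. Of 150 tested, 18 rose (12%) and 21 fell (14%), under the background in both directions. Without replicate 2, 11 rose and 9 fell, and without the replicate block 10 fell. The mature sequences for the 4 largest rises and the 4 largest falls are given from RefSeq (GRCr8), 5′ to 3′, with the seed, bases 2 to 8, in capitals. Mir221 and Mir222 are printed first because they share 1 seed, lie side by side on chromosome X, and both fell.
rno-miR-221-3p, chrX:6023246-6023268 (plus strand): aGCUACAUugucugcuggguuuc
rno-miR-222-3p, chrX:6022682-6022702 (plus strand): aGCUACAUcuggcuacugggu
rno-miR-29a-3p, chr4:60617968-60617989 (minus strand): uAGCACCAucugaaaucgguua
rno-miR-31a-5p, chr5:108714906-108714927 (minus strand): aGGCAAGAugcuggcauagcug
rno-miR-21-5p, chr10:71902653-71902674 (minus strand): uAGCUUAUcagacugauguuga
rno-miR-351-5p, chrX:137725157-137725181 (minus strand): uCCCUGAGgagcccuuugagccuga
rno-miR-27b-3p, chr17:1819163-1819183 (minus strand): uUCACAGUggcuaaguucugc
rno-let-7c-5p, chr11:29688127-29688148 (plus strand): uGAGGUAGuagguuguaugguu

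The feature of Mir221 went from 8.68, 8.19 and 8.51 to 5.998, 5.63 and 5.94, a difference of −2.60 (SE 0.08, adjusted p = 4.12e-09). That of Mir222 went from 7.10, 6.87 and 6.74 to 5.67, 5.41 and 5.18, a difference of −1.49 (SE 0.08, adjusted p = 9.56e-08). Both microRNAs are known to repress the cell cycle inhibitor p27. Mir29a (−1.44), whose mature form targets collagen transcripts, and Mir31 (−1.25) fell, with Mir29a at 8.09, 7.99 and 7.54 without and 6.82, 6.16 and 6.31 with trametinib. Mir21 (0.77), Mir351 (0.75) and Mir27b (0.59) rose. Mirlet7c1 differed by 0.93 (SE 0.19, adjusted p = 0.00267), and was not called without replicate 2 (0.85, adjusted p = 0.0529). Its mean on the trimebutine arrays was 5.49 (SD 0.51), under the low-signal limit, and 6.42 with trametinib, so the size of its rise is uncertain. The 6 microRNAs printed besides Mir221 and Mir222 each have a seed of their own.

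Of the 136 tested microRNA features with a position in the table, 17 lay in the largest cluster, chr6:134546235-134579838 in GRCr8, where neighbours are under 100 kb apart. In it 10 fell, none rose and 16 of 17 differences were below 0, from −0.93 to 0.21 with a median of −0.43. Of the other 133 tested features 11 fell. The 133 include the features without a position, which could not be placed in or out of the cluster. Among these Mir485 (−0.49) and Mir181b1 (−0.53) fell. The cluster was chosen after the values were seen and carries no test, and its members come from shared transcripts, so they are not independent. The protein-coding genes known from the same imprinted domain, Dio3 (−1.36) and Dlk1 (−0.58), fell too, and so did the long non-coding RNA gene Meg3 (−0.22), which was not called in 6 of 17 alternatives, among them those without the replicate block, without replicate 1 and without replicate 2. These genes were named after their values were seen. In the same domain, 6 tested features outside the cluster (Mir770, Mir493, Mir337, Mir3544, Mir431 and Mir127) were not called, with differences from −0.16 to 0.07.

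**Figure D4:**
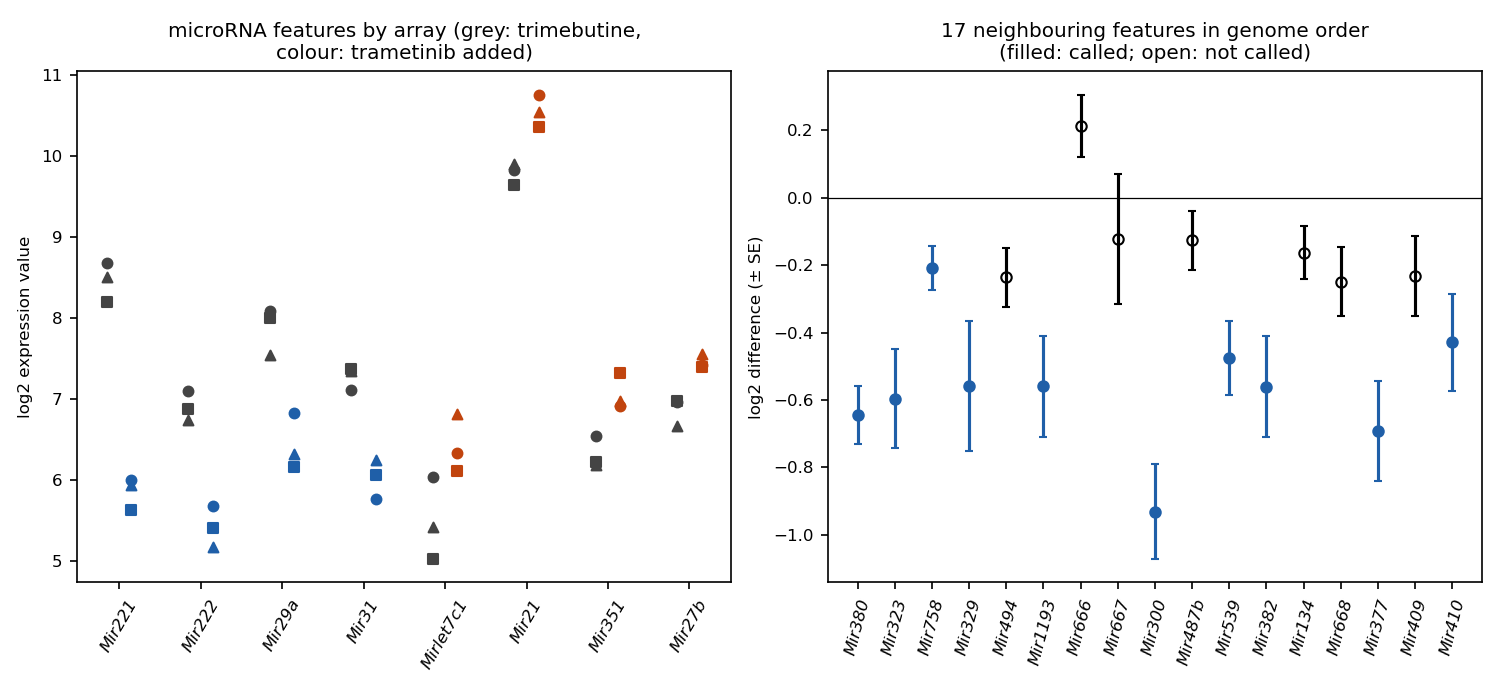
Left, log2 expression values of 8 microRNA features on each array, grey with trimebutine alone and coloured with trametinib (circle, square and triangle are replicates 1, 2 and 3). Right, differences with standard errors for 17 neighbouring features in genome order, of which 10 are filled as called lower and 1 lies above 0.

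The vehicle cultures give the level of the same genes without either drug. Over the 374 genes named by the rule for this comparison, trimebutine minus vehicle ran from −0.24 to 0.22 and no gene was called (0% of 13636, by limma, where 252 had an unadjusted p under 0.05). With trametinib minus vehicle the same genes ran from −5.76 to 4.78. These comparisons share arrays with the main one and are given side by side as values only. Mfap5 had differences of 0.10 for trimebutine and 4.78 for the combination against vehicle, Bmp2 0.00013 and −3.11, Sema3a 0.03 and −2.26, and Trib3 0.01 and 1.38.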

How the data were processed

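Biotin-labelled material made from 400 ng of total RNA per culture (per the labels' protocols; 12 cultures) was read on Affymetrix Rat Gene 2.0 ST arrays, which use 1 colour. The authors deposited log2 expression values per feature, for which the submitters' processing notes name oligo and RMA. Their versions and settings, and the build behind the array's annotation, were not given in the sources used here. RMA sets arrays to a common distribution, so a change in total RNA per cell does not show.

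Of 36685 features, 18511 had 1 gene symbol, 575 several and 17599 none. The GRCr8 gene table updated 18394 of the symbols by Entrez identifier. Where features shared a symbol (636 did), the brightest stood for the gene, which left 18166 genes. Those with a mean under the 25th percentile, 5.83, were dropped and 13636 were tested. Features with several symbols or none were fitted apart.

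The limma model (limma 3.58.1, R 4.3.3; lmFit, contrasts.fit, eBayes) had a mean for each of the 4 groups and the replicate number as a block over all 12 arrays, with 6 residual degrees of freedom. Tests were two-sided, with Benjamini-Hochberg adjustment over all genes and a threshold of 0.05. Titles give every group replicate numbers 1 to 3, and the design text names 3 isolates. The number served as a pairing on that ground. Arrays that share a number deviated together from their group means in each of 18 pairs (r from 0.21 to 0.81). In the 3 such pairs of the 2 groups compared, r ran from 0.24 to 0.51. In 36 pairs with different numbers r ran from −0.71 to 0.10. Deviations within a group sum to 0, so that these last values are no separate contrast. The spread behind the p-values is that of cultures around the fitted levels of group and replicate number, pooled over all 4 groups. Differences between isolates that all groups share are taken out by the block. The number of arrays limits the precision. On simulated data with 13636 genes the fit recovered 86% of 50 genes changed by 0.5, 100% at 1, 98% at 2 and 100% at 3, with 6 false among 198 calls. The simulated noise was independent between genes and far fewer genes changed than the 42% called here, so that recovery in the data may differ.

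Genes were named by a rule: the 20 largest rises and 20 largest falls among called genes whose groups did not overlap, outside the cell cycle and ERK feedback lists and leaving out locus numbers and chemosensory receptors, then up to 4 rises and 4 falls per list, the marker and drug target genes, and the 2 genes nearest outside the threshold. Other genes, in counts, markers and promoter windows, were picked with their values in view. The comparison, its 59 lists and the motifs were chosen with earlier results of these data known, and lists carry counts and medians with no test. In all 17 alternatives were run: no block, the 6 arrays alone, other filters, scalings and feature rules, and arrays left out.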

Additional observations from a re-analysis of the deposited data

Results flagged for a closer look

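Signal also lay in features that the comparison by gene did not use, those with no symbol or with several. Of 9611 such features above the low-signal limit, 434 were higher and 646 were lower with trametinib added at an adjusted p under 0.05 in limma, fitted apart from the genes. Both are smaller shares than the 21.2% and 20.8% of the 13636 genes, so that such features were called less often than genes. Those called drew attention because they change between the groups and belong to no gene named above. The 2 named here as higher are feature 17703587, with a difference of 3.92 (adjusted p = 9.04e-06, from a mean of 7.04 to 10.96), and feature 17697685, annotated to both Ptgdr and Ptgdrl1, with 2.41. The 2 named as lower are feature 17787136, with −3.64 (from 9.78 to 6.13), and feature 17601885, with −2.67. What these transcripts are was not analysed here.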

How the results depend on the processing

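All 4 counts (genes called, higher, lower, and called with at least 2-fold difference) were recomputed under 17 alternatives. Leaving out a replicate number or a single array gave 3587 to 5669 genes called, 1773 to 2815 higher, 1814 to 2854 lower and 641 to 685 at least 2-fold, and the lowest count was that without replicate 2, which leaves 2 isolates. With no replicate block 4556 genes were called, 2295 higher and 2261 lower, and 655 at least 2-fold, so that the pairing moved the count of calls but hardly that of large differences. With array medians set equal 57.3% of calls were higher, beside 50.5%, and the median difference was 0.06 in place of 0.03. Of 372 named genes that passed, 326 kept the call in every alternative run for them, and none reversed in any. Small differences depend most on these choices. The median SE was 0.072. In the simulated data, where far fewer genes changed than were called here, the fit recovered 86% of changes of 0.5. Values near or under 5.83 carry little signal, so the sizes of rises from it and falls to it are limited by background.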
